A study of Mus musculus with 35 samples.

Results

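The 10 genes described here belong to the transforming growth factor beta (TGF-beta) pathway and were measured in sorted cells of the mouse mammary gland. The ligands are Tgfb1, Tgfb2 and Tgfb3, the latency proteins Ltbp1 and Ltbp2, and the receptors Tgfbr1, Tgfbr2 and Tgfbr3. Smad3 is a signal transducer and Smad7 an inhibitory Smad. The genes were chosen by symbol, and all 10 were found among 19937 genes with a probe set of a single symbol. Each of the 10 had 1 such probe set. They lie on chromosomes 7, 1 and 12 (Tgfb1, Tgfb2, Tgfb3), 17 and 12 (Ltbp1, Ltbp2), 4, 9 and 5 (Tgfbr1, Tgfbr2, Tgfbr3) and 9 and 18 (Smad3, Smad7) in build GRCm38.p6.

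TGF-beta is secreted in a latent form, held by its propeptide and tethered to the extracellular matrix by latent TGF-beta binding proteins until integrins, proteases or thrombospondin release it. The active ligand is bound by the type II receptor, which phosphorylates the type I receptor, which in turn phosphorylates the receptor Smads. In the mammary gland the pathway is known for restraining ductal growth and milk production and for its part in the cell death of involution after weaning.

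The series asked which genes an early pregnancy leaves changed in each mammary cell type. For the parous groups, mating took place at day 42 of life, 21 days were given to lactation and a further 40 days to involution, and the nulliparous groups were virgins of matching age. The 4th glands of 5 mice were pooled for each replicate, digested and sorted by flow cytometry. The sorts gave 2 luminal fractions, CD24-high and either positive or negative for Sca1, and 2 basal fractions, CD24-low, Sca1-negative and high or low in CD49f (the integrin alpha-6 chain). Total epithelial and stromal cells were collected too. There were 3 pools per group, except 2 of parous basal CD49f-high cells, since the submitters excluded 1 replicate that had hybridised poorly. From most pools 10000 cells entered the amplification, but 2000 for both histories of the CD49f-high fraction, so cell number and that sort cannot be told apart. Strain is not given in the sources used here, and the labels do not say whether fractions with the same number came from the same pool.

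Values are log2 signals of Affymetrix arrays hybridised with amplified RNA. Medians of the 35 arrays lay between 5.81 and 5.92, and the small number of arrays limits the precision. The sorts largely matched their labels by defining markers. The basal keratin Krt14 averaged 11.2 in basal CD49f-low cells, against 7.60 in luminal Sca1-positive and 8.17 in Sca1-negative cells. The luminal keratin Krt8 averaged 12.6 and 12.4 in those luminal fractions, but also 11.2 in basal CD49f-low and 11.0 in CD49f-high cells. The total epithelial samples read at nearly basal levels for the basal keratins Krt14 (10.9) and Krt5 (11.3). Their luminal keratins Krt8 (12.1) and Krt18 (11.3) were nearer to the luminal than to the basal fractions. Stromal cells had a mean fibroblast marker level of 10.3 to 10.8, but they also carried the luminal keratin Krt8 at 8.44 to 11.1. Sorted fractions are mixtures measured in bulk, so fewer cells of a type and less RNA per cell cannot be told apart.

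The 10 genes differed more often between cell types than between reproductive histories. In basal minus luminal cells 4 genes were higher and 3 lower at a limma adjusted p under 0.05, where 15.5% of all 19937 genes were higher and 19.5% lower. In luminal Sca1-positive minus Sca1-negative cells 1 was higher and 6 lower, against 9.00% and 7.11% of all genes. In basal CD49f-high minus CD49f-low cells none was higher and 1 lower (1.05% and 2.48% of all genes), and in stromal minus total epithelial cells 3 were higher and 1 lower (13.6% and 15.6%). The median difference of the 10 genes was -0.13, -0.70, -0.21 and 0.17 on the log2 scale in those comparisons, against 0.0039, -0.0125, 0.029 and 0.019 for all genes.

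**Figure D1:**
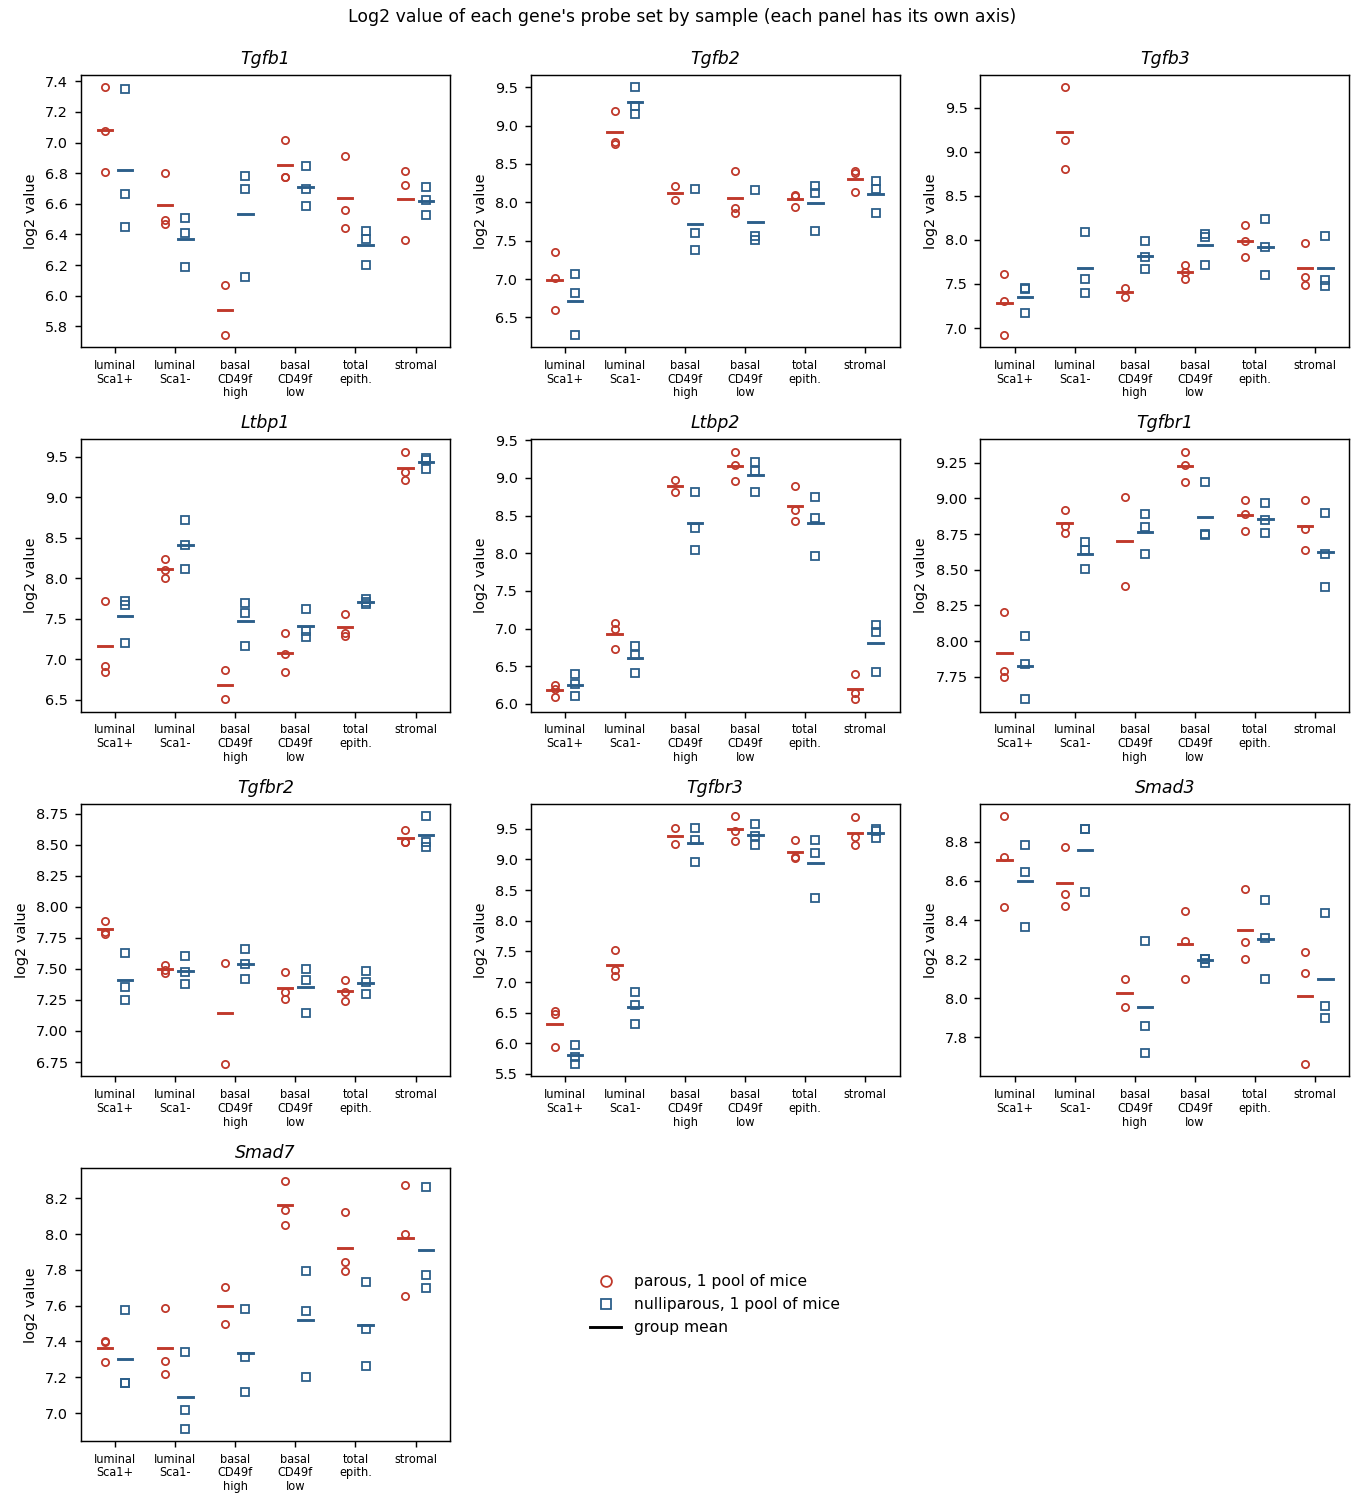
Log2 value of each gene's probe set (y axis, a scale of its own in each panel) in every sample, by sorted subpopulation (x axis), with parous pools as red circles and nulliparous pools as blue squares, and bars at group means. The 3 parous luminal Sca1-negative samples of Tgfb3, at 8.81 to 9.74, stand above every other sample of that gene.

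**Figure D2:**
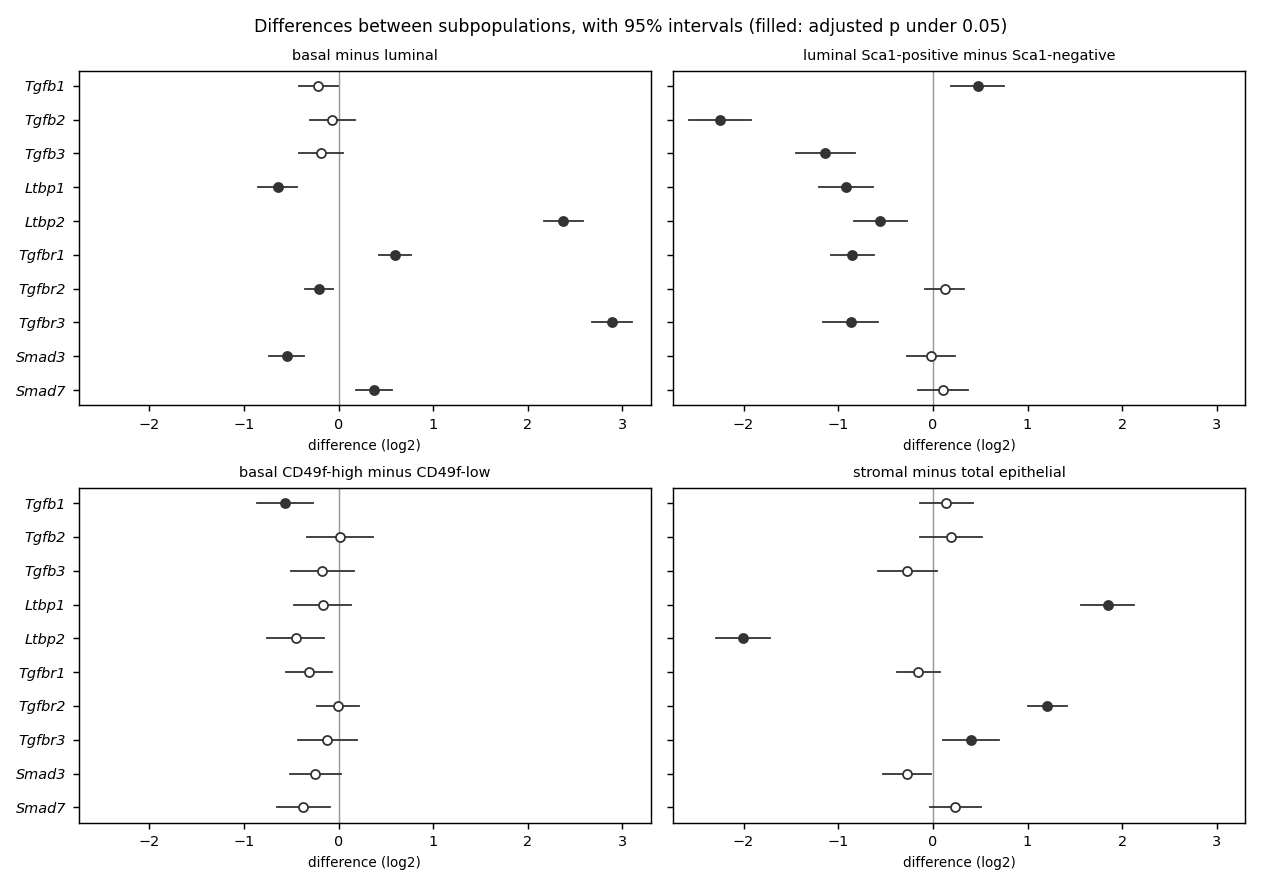
Difference between subpopulations (x axis, log2) for each of the 10 genes (y axis) with its 95% confidence interval, filled where the limma adjusted p was under 0.05. Tgfbr3 (2.89) and Ltbp2 (2.38) were furthest to the right in basal minus luminal cells and Tgfb2 (-2.25) furthest to the left in luminal Sca1-positive minus Sca1-negative cells.

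Among parous minus nulliparous differences, 1 gene was called in luminal Sca1-negative cells (1.00% of all genes), 1 in basal CD49f-high cells (9.06%) and 3 in the mean of the 4 sorted epithelial fractions (6.20%). None of the 10 was called in stromal cells (0.597% of all genes), total epithelial cells (0.446%), luminal Sca1-positive cells (0.607%) or basal CD49f-low cells (0.968%) by limma. At an unadjusted p under 0.05 there were 1, 1, 2 and 2 genes in those 4 comparisons. Of all 19937 genes, 1827, 1448, 1322 and 2093 had such a p. The median parity difference of the 10 genes was 0.22 in luminal Sca1-negative cells, against -0.036 for all genes, and 0.15 in the mean of the 4 fractions, against -0.0023. It was -0.0077 in stromal cells (0.035 for all genes), 0.059 in total epithelial cells (0.0040), 0.10 in luminal Sca1-positive cells (-0.0094), 0.10 in basal CD49f-low cells (1e-04) and 0.0014 in CD49f-high cells (0.039).

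Whether history acted differently in different cells was tested directly. The test across all 6 subpopulations called 1 of the 10 genes (2.80% of all genes). The contrast of luminal Sca1-positive minus Sca1-negative cells called 1 (0.0953%) and that of luminal Sca1-negative minus basal CD49f-low cells called 1 (0.301%). That of basal CD49f-high minus CD49f-low cells called none by limma (2.27%). It had 1 gene at an unadjusted p under 0.05, where 3013 of all 19937 genes had such a p. The gene called was Tgfb3 each time.

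**Figure D3:**
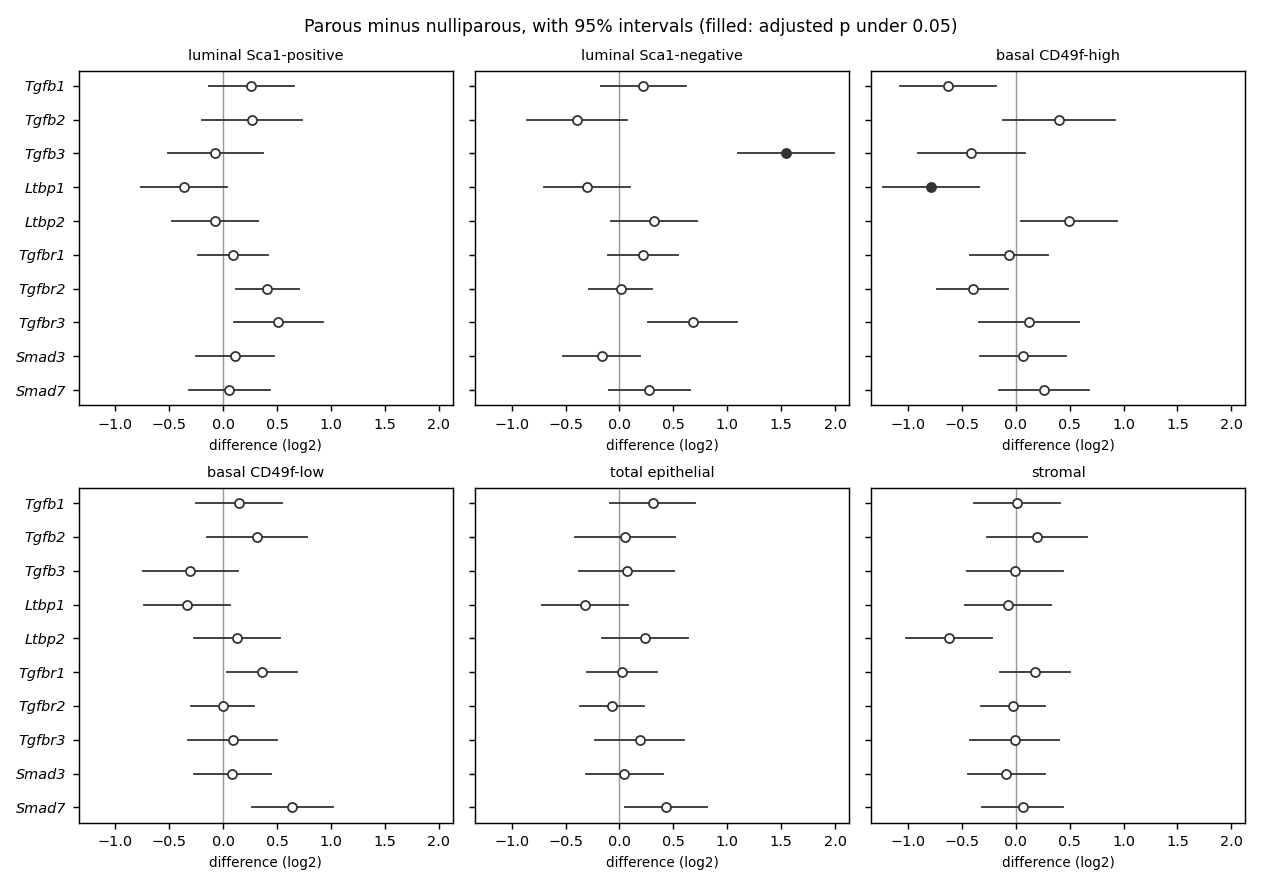
Parous minus nulliparous difference (x axis, log2) of each gene (y axis) in each subpopulation, with its 95% confidence interval, filled where the limma adjusted p was under 0.05. Only Tgfb3 in luminal Sca1-negative cells (1.55) and Ltbp1 in basal CD49f-high cells (-0.79) are filled.

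Tgfb3, the ligand that in mice is induced in the epithelium at the start of involution, was called higher in parous luminal Sca1-negative cells and in none of the other 5 fractions. In those cells it read 9.74, 9.14 and 8.81 in the parous pools, against 8.09, 7.56 and 7.40 in the nulliparous pools. All 3 parous samples lay above all 3 nulliparous ones. The difference was 1.55 (SE 0.22), or 2.92-fold, with a limma adjusted p of 1.07e-04, and it stayed between 1.29 and 1.75 and past the threshold whichever of the 6 samples was left out.

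The other fractions did not share it. In luminal Sca1-positive cells Tgfb3 read 7.61, 7.30 and 6.92 in parous pools, against 7.46, 7.44 and 7.17 in nulliparous pools. Those groups overlapped, and the difference was -0.07 (95% interval -0.52 to 0.37). In basal CD49f-low cells it read 7.72, 7.63 and 7.56 in parous pools, against 7.72, 8.03 and 8.07 in nulliparous pools, a difference of -0.30 with an adjusted p of 0.70. In CD49f-high cells the values were 7.36 and 7.46 in parous pools, against 7.99, 7.80 and 7.67 in nulliparous pools, a difference of -0.41 with an adjusted p of 0.339. In both basal fractions the parous samples were the lower ones, in CD49f-low cells by a margin that vanishes on rounding. Total epithelial cells (0.07) and stromal cells (-0.0065) had differences near 0.

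The parity difference of Tgfb3 differed among the 6 subpopulations with an adjusted p of 0.00196 by limma's F test, which held whichever of the 35 samples was left out. It was 1.85 larger in luminal Sca1-negative than in basal CD49f-low cells (SE 0.31, adjusted p = 0.00431), and this held in all 12 fits with a sample left out. Against luminal Sca1-positive cells the contrast (Sca1-positive minus Sca1-negative) was -1.62 (SE 0.31, adjusted p = 0.0228). That call was lost in 7 of 12 fits with a sample left out, among them without parous Sca1-negative replicate 1, up to an adjusted p of 0.109, and stood at 0.195 when only these 4 groups were fitted.

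Markers of basal and myoepithelial cells moved in the same cells. Their mean log2 level over 10 genes was 6.97 to 7.16 in parous luminal Sca1-negative pools, against 6.46 to 6.65 in nulliparous ones, and 3 of 10 rose (list median 0.44). The same mean was 9.67 to 10.2 in basal cells of either history. The part of these markers in the Tgfb3 result was not tested. Tgfb3 read 8.81 and above in the parous luminal Sca1-negative samples and at most 8.07 in the basal samples. None of the 10 fibroblast, 10 endothelial or 13 macrophage and dendritic cell markers was called in that comparison.

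By subpopulation, Tgfb3 averaged 8.46 ± 0.93 in luminal Sca1-negative cells (SD over both histories, n = 6) and 7.32 ± 0.24 in Sca1-positive cells (n = 6), with the other 4 fractions between 7.61 and 7.95. The Sca1-positive minus Sca1-negative difference was -1.14 (SE 0.15, adjusted p = 1.77e-06). Samples overlapped between every pair of neighbours in that order. Its basal minus luminal difference of -0.19 was not past the threshold (adjusted p = 0.218).

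Tgfb2 was the ligand with the sharpest sorting within the luminal layer. It read 6.60, 7.35 and 7.01 in parous and 6.28, 6.81 and 7.07 in nulliparous luminal Sca1-positive cells. In Sca1-negative cells it read 8.78, 9.19 and 8.76 in parous and 9.15, 9.50 and 9.25 in nulliparous pools. The groups were more than 1 log2 unit apart at their closest, and the difference was -2.25 (SE 0.16, adjusted p = 1.30e-11). Stromal (8.21 ± 0.20), total epithelial (8.01 ± 0.21), basal CD49f-high (7.92 ± 0.37) and CD49f-low cells (7.90 ± 0.34; SD, n = 6 each, 5 for CD49f-high) lay between, overlapping each other but neither luminal fraction. The basal minus luminal difference of Tgfb2 was -0.07, an average over luminal fractions that stood on either side of the basal ones.

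Parity moved no fraction of Tgfb2 past the threshold. The parous minus nulliparous difference was -0.39 in luminal Sca1-negative cells, with a 95% interval of -0.86 to 0.07, and between 0.05 and 0.40 in the other 5 fractions.

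Of the 7 genes with a promoter in RefSeq's table, Tgfb2 and Ltbp1 were the 2 whose window held TGACG, the core of the cAMP response element, on either strand. Both were lower in luminal Sca1-positive than Sca1-negative cells, but so were Tgfbr1 and Ltbp2, whose windows hold no TGACG. The Tgfb2 and Ltbp1 windows are shown for these matches, from 250 bases before to 50 after the annotated start, 5′ to 3′ on the gene's strand, with each TGACG or its reverse complement in capitals. Tgfb2 lies on the minus strand at chr1:186705940-186706239 and Ltbp1 on the plus strand at chr17:75005279-75005578, both in GRCm38.p6.
Tgfb2: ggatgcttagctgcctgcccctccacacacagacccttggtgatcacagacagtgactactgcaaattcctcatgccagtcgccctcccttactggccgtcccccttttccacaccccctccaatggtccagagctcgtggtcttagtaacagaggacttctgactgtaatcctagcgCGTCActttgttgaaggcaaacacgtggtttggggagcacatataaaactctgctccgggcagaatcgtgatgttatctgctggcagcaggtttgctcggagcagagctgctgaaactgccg
Ltbp1: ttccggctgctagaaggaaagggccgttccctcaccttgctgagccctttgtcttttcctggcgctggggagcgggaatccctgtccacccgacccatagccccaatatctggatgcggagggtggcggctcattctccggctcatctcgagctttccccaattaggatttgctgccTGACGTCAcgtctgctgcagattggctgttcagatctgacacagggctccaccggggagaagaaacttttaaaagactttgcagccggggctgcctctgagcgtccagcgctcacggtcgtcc

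The Tgfb2 match begins 72 bases before the start on the opposite strand, and a TATAAA begins 31 bases before it. The Ltbp1 window holds the full palindrome TGACGTCA, whose overlapping TGACG matches are counted on both strands, 73 bases before the start. A second annotated start of Ltbp1 had no such match in its window. TGACG is in 20.8% of all 32851 windows of that length, TGACGTCA in 1.79% and TATAAA in 13.6%, both strands counted, so a match is a description of these letters and not of binding. Tgfb3, Tgfbr3 and Smad7 have no entry in the table.

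Tgfb1, the ligand best known from immune and stromal cells, marked no fraction sharply. Its 6 subpopulation means ran from 6.22 ± 0.44 in basal CD49f-high cells (SD, n = 5) to 6.95 ± 0.37 in luminal Sca1-positive cells (SD, n = 6), and every pair of neighbours overlapped. Luminal Sca1-positive cells read 7.36, 7.08 and 6.81 in parous and 6.67, 7.35 and 6.45 in nulliparous pools. Sca1-negative cells read 6.50, 6.47 and 6.80 in parous and 6.41, 6.51 and 6.19 in nulliparous pools. Tgfb1 was the 1 gene of the 10 called higher in Sca1-positive cells, by 0.47 (SE 0.14, adjusted p = 0.0149), with overlapping samples. That call was lost without parous Sca1-positive replicate 1 or nulliparous Sca1-positive replicate 2, up to an adjusted p of 0.0748.

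In basal cells Tgfb1 was lower in the CD49f-high than in the CD49f-low fraction, with a difference of -0.56 (SE 0.15, adjusted p = 0.0280). CD49f-high cells read 6.07 and 5.75 in parous and 6.78, 6.69 and 6.12 in nulliparous pools. CD49f-low cells read 7.02, 6.77 and 6.77 in parous and 6.85, 6.70 and 6.59 in nulliparous pools. The 2 parous CD49f-high samples were the lowest of the 35. The call was lost without CD49f-high parous 3 or nulliparous 3 or CD49f-low parous 1 or nulliparous 2 (up to an adjusted p of 0.101), and its adjusted p was 0.0828 with array weights and 0.173 when only these fractions were fitted. The parity difference in CD49f-high cells, -0.63, had an adjusted p of 0.0691. It passed with a replicate block (0.0441) and without nulliparous replicate 3 (0.0214), and its adjusted p reached 0.363 with another sample left out.

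Ltbp1, which binds latent TGF-beta and anchors it in the matrix, was a stromal gene with a luminal Sca1-negative second peak. Stromal cells read 9.31, 9.21 and 9.56 in parous and 9.48, 9.36 and 9.46 in nulliparous pools, against 7.29, 7.33 and 7.56 in parous and 7.68, 7.71 and 7.74 in nulliparous total epithelial cells. No sample overlapped, and the difference was 1.85 (SE 0.14, 3.60-fold, adjusted p = 5.29e-12). Luminal Sca1-negative cells followed stromal cells at 8.26 ± 0.26 (SD, n = 6), apart from both neighbours. The other 4 fractions, from 7.08 to 7.55, overlapped in turn.

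Within the luminal layer Ltbp1 was lower in Sca1-positive than in Sca1-negative cells, with a difference of -0.92 (SE 0.14, adjusted p = 9.98e-06), and none of the 12 samples overlapped. Basal minus luminal was -0.64 (SE 0.10, adjusted p = 5.56e-06). That call held in all 23 fits with a sample left out, between -0.69 and -0.57.

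Ltbp1 had lower parous than nulliparous means in the epithelium. Over the 4 sorted epithelial fractions it averaged 7.26 in parous and 7.71 in nulliparous cells, a fall of 0.45 (SE 0.10, adjusted p = 0.00524) that held in all 23 fits with a sample left out. Without the CD49f-high fraction the mean difference was -0.33 with an adjusted p of 0.0890. CD49f-high cells read 6.87 and 6.50 in parous pools, against 7.16, 7.57 and 7.69 in nulliparous pools, without overlap. There the fall was 0.79 (SE 0.22, adjusted p = 0.0207), lost without parous 3, nulliparous 2 or nulliparous 3 (up to 0.197), with array weights (0.129) and when only that fraction was fitted (0.344).

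In every other fraction the parous mean of Ltbp1 was also below the nulliparous one, with no call. The difference was -0.34 in basal CD49f-low, -0.30 in luminal Sca1-negative, -0.37 in luminal Sca1-positive, -0.32 in total epithelial and -0.07 in stromal cells. Total epithelial samples did not overlap. The F test of a difference among subpopulations was not past the threshold (adjusted p = 0.680). Fibroblast markers, which like Ltbp1 were high in stroma, had a mean level of 6.60 to 6.81 in parous basal CD49f-low pools, against 7.00 to 7.43 in nulliparous ones. In CD49f-high cells that level was 6.31 to 6.37 in parous pools, against 6.15 to 6.78 in nulliparous pools. In luminal cells it was at most 6.29 in parous and 6.32 in nulliparous pools. Of the 10 markers, 1 was called higher in CD49f-high cells (9.06% of all genes called) and 1 lower in CD49f-low cells (0.968%). In luminal Sca1-positive cells 1 was higher and 1 lower (0.607%), and in stromal cells 1 was lower (0.597%). None was called in luminal Sca1-negative (1.00%) or total epithelial cells (0.446%). Their part in the Ltbp1 result was not tested.

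Ltbp2, a relative of Ltbp1 that binds fibrillin microfibrils but not latent TGF-beta, was high in basal and low in stromal cells, the reverse of Ltbp1, while both were lower in luminal Sca1-positive than Sca1-negative cells. Basal CD49f-high cells read 8.97 and 8.81 in parous and 8.81, 8.33 and 8.05 in nulliparous pools, and CD49f-low cells 9.17, 9.35 and 8.96 in parous and 9.09, 8.81 and 9.21 in nulliparous pools. Luminal Sca1-positive cells read 6.20, 6.25 and 6.10 in parous and 6.27, 6.10 and 6.39 in nulliparous pools, and Sca1-negative cells 7.08, 7.00 and 6.73 in parous and 6.41, 6.77 and 6.65 in nulliparous pools. No basal sample fell below 8.05 and no luminal one rose above 7.08. The basal minus luminal difference was 2.38 (SE 0.10, 5.19-fold, adjusted p = 1.09e-17).

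Ltbp2 averaged 6.51 ± 0.41 in stromal cells and 8.51 ± 0.32 in total epithelial cells (SD, n = 6 each), a difference of -2.01 with an adjusted p of 8.45e-13 and no overlap. The order was basal CD49f-low, basal CD49f-high and total epithelial cells, overlapping in turn, and then, after a gap, luminal Sca1-negative, stromal and luminal Sca1-positive cells, overlapping in turn. Sca1-positive minus Sca1-negative was -0.55 (SE 0.14, adjusted p = 0.00426). Parity gave no call for Ltbp2. In stroma it read 6.39, 6.06 and 6.14 in parous pools, against 7.05, 6.43 and 6.96 in nulliparous pools, a difference of -0.62 without overlap and with an adjusted p of 0.212.

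Tgfbr3 (betaglycan), the co-receptor that presents ligand, TGF-beta2 above all, to the type II receptor, showed the widest range of the 10 genes, 3.68 log2 units between group means. Basal CD49f-high cells read 9.52 and 9.26 in parous and 9.51, 9.32 and 8.96 in nulliparous pools, and CD49f-low cells 9.47, 9.71 and 9.30 in parous and 9.58, 9.39 and 9.24 in nulliparous pools. Luminal Sca1-positive cells read 6.48, 6.53 and 5.94 in parous and 5.66, 5.78 and 5.97 in nulliparous pools, and Sca1-negative cells 7.53, 7.19 and 7.09 in parous and 6.84, 6.32 and 6.62 in nulliparous pools. The lowest basal sample was well above the highest luminal one. The difference was 2.89 (SE 0.10, 7.42-fold, adjusted p = 2.81e-19).

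Stromal cells were at the basal level of Tgfbr3, 9.43 ± 0.16 (SD, n = 6), and total epithelial cells at 9.03 ± 0.35 (SD, n = 6). Stromal minus total epithelial was 0.40 (adjusted p = 0.0334), with overlap, and that call was lost in 6 of 12 fits with a sample left out, up to an adjusted p of 0.153. Sca1-positive minus Sca1-negative was -0.87 (SE 0.14, adjusted p = 3.75e-05).

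In luminal cells the parous means of Tgfbr3 were the higher ones. The parous minus nulliparous difference was 0.68 (SE 0.20) in Sca1-negative cells, without overlap but with an adjusted p of 0.112, and 0.51 in Sca1-positive cells, with overlap and an adjusted p of 0.546. In Sca1-negative cells it passed with array weights (adjusted p = 0.0184). Over the 4 sorted epithelial fractions Tgfbr3 averaged 8.12 in parous and 7.77 in nulliparous cells and rose by 0.35 (SE 0.10, adjusted p = 0.0400). This call was lost in 13 of 23 fits with a sample left out (up to 0.0939), under quantile normalisation (0.0554) and with pools as a random block (0.0631). Without the CD49f-high fraction the difference was 0.43 (adjusted p = 0.0340). The basal marker mean, given above for Sca1-negative cells, was 6.24 to 6.46 in parous and 5.97 to 6.34 in nulliparous Sca1-positive cells, and its part in the Tgfbr3 result was not tested.

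Tgfbr1, the type I receptor kinase, was lowest in luminal Sca1-positive cells. These read 7.79, 7.75 and 8.21 in parous and 7.59, 7.84 and 8.04 in nulliparous pools, against 8.76, 8.92 and 8.81 in parous and 8.51, 8.64 and 8.69 in nulliparous Sca1-negative cells. The 2 fractions did not overlap, and the difference was -0.85 (SE 0.11, adjusted p = 1.22e-06). The other 5 fractions, from 8.72 ± 0.22 in stromal cells to 9.05 ± 0.25 in basal CD49f-low cells (SD, n = 6 each), overlapped in turn. Basal minus luminal was 0.60 (adjusted p = 6.62e-07), and no parity difference was called, the highest being 0.36 in basal CD49f-low cells (adjusted p = 0.411).

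Tgfbr2, the type II receptor that binds ligand first, was highest in stroma. Stromal cells read 8.52, 8.52 and 8.61 in parous and 8.73, 8.52 and 8.48 in nulliparous pools, against 7.31, 7.41 and 7.24 in parous and 7.39, 7.48 and 7.30 in nulliparous total epithelial cells. No stromal sample overlapped any epithelial one, and the difference was 1.21 (SE 0.10, 2.31-fold, adjusted p = 6.94e-11). The 5 epithelial fractions lay within 7.34 to 7.62 and overlapped in turn. Basal minus luminal was -0.21 (adjusted p = 0.0282), a call lost in 5 of 23 fits with a sample left out, under quantile normalisation (0.113) and when only these fractions were fitted (0.0664).

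Luminal Sca1-positive cells read 7.79, 7.88 and 7.78 for Tgfbr2 in parous pools, against 7.63, 7.25 and 7.35 in nulliparous pools. The groups did not overlap, but the difference of 0.41 had an adjusted p of 0.409. In basal CD49f-high cells parous replicate 3, at 6.73, was the lowest of the 35 and parous replicate 2 was at 7.55. The difference there was -0.40 with an adjusted p of 0.128. It rests on these 2 samples, being -0.81 without replicate 2 and 0.01 without replicate 3, each with 1 parous sample left.

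Smad3, which carries the signal to the nucleus, varied least, by 0.80 log2 units between group means. Luminal Sca1-negative (8.68 ± 0.18) and Sca1-positive cells (8.65 ± 0.21) averaged more than basal CD49f-low (8.24 ± 0.12) and CD49f-high cells (7.99 ± 0.22; SD, n = 6 each, 5 for CD49f-high). Neighbours in the order of the 6 fractions overlapped throughout. Basal minus luminal was -0.55 (SE 0.09, adjusted p = 1.25e-05), between -0.59 and -0.52 with any sample left out. Parity differences ran from -0.17 to 0.11, none called.

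Smad7, the inhibitory Smad that the pathway itself induces, was highest in stromal cells at 7.94 ± 0.28 and lowest in luminal Sca1-negative cells at 7.23 ± 0.24 (SD, n = 6 each), each overlapping the next fraction. It was 0.38 higher in basal than in luminal cells (SE 0.09, adjusted p = 0.00212). Basal CD49f-low cells read 8.14, 8.05 and 8.30 in parous pools, against 7.57, 7.20 and 7.80 in nulliparous pools. The parous samples were all higher, by 0.64 (SE 0.18, adjusted p = 0.101), and passed with array weights (adjusted p = 0.0123).

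Total epithelial cells read 7.85, 7.79 and 8.12 for Smad7 in parous pools, against 7.73, 7.47 and 7.26 in nulliparous pools, again apart but not called (0.43, adjusted p = 0.572). All 6 fractions had a higher parous mean, by 0.06 in luminal Sca1-positive cells up to 0.64 in basal CD49f-low cells. Over the 4 sorted epithelial fractions Smad7 rose by 0.31 (SE 0.09, adjusted p = 0.0474). That call was lost in 17 of 23 fits with a sample left out (up to 0.103), under quantile normalisation (0.0533), with pools as a random block (0.0867) and without the CD49f-high fraction (0.0875).

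Across the 12 group means the profiles of several of the genes ran together, which describes the same few samples and is no test. Tgfbr2 and Ltbp1 had a Pearson r of 0.86, Tgfbr1 and Tgfbr3 of 0.79, and Tgfbr3 and Smad3 of -0.89. Ltbp1 and Ltbp2 stood at -0.60. Among 5089 other named genes whose group means spanned at least 1 log2 unit, the profile nearest to Tgfbr3 was that of Hdgfl3 (r = 0.99). Mcc was nearest to Ltbp1 (0.99) and Fhod3 to Ltbp2 (0.99). Npc2 was nearest to Tgfbr2 (0.97), Slc16a7 to Tgfbr1 (0.96) and Sestd1 to Tgfb2 (0.95). Tgfb1 and Tgfb3 had less close neighbours, Ampd3 (0.91) and Slc39a14 (0.88). Gem was nearest to Smad7 (0.92), and Grpel2 to Smad3 (0.97).

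Other genes of the pathway were counted from 6 lists, with the shares over all genes beside them. In basal minus luminal cells, where 15.5% of all genes were higher and 19.5% lower, all 4 proteoglycans that bind TGF-beta were higher (median 1.85), among them Bgn by 2.90 and Fmod by 2.79. Of 11 activators 5 were higher and 2 lower (median 0.15): the protease Adamts1 was 3.40 and Mmp2 3.00 higher, and Thbs1 (thrombospondin, which releases the ligand) 1.82 higher. The integrin chains that free latent TGF-beta were divided, with Itgb8 1.32 higher and Itgb6 lower (difference -1.89) in basal cells than in the luminal average. Itgb8 averaged 9.29 in basal cells, above luminal Sca1-positive cells (6.35) but not Sca1-negative cells (9.60). Of 16 genes known as TGF-beta targets 11 were higher and 2 lower (median 0.48), led by Postn (4.59), Snai2 (4.14), Tagln (3.47) and Ccn2 (2.75). Snai2 and Tagln are also genes of basal and contractile cells. Other Smads and their regulators went 8 higher and 5 lower of 17, other receptors 3 higher of 8 (the decoy receptor Bambi by 0.93), and other latency and microfibril proteins 3 higher and 1 lower of 7 (Ltbp4 by 1.28).

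In luminal Sca1-positive minus Sca1-negative cells, where 9.00% of all genes were higher and 7.11% lower, 4 of 11 activators were lower and 2 higher. Itgb8 differed by -3.25, Thbs1 by -2.73 and Adamts1 by -1.81, against 1.26 for the membrane protease Mmp14. Among the targets 4 were lower (Postn -2.42, Ccn2 -1.31, Nox4 -1.07 and Tagln -1.05) and Bhlhe40 was higher (0.69). Of the remaining lists, the proteoglycan Dcn was higher by 1.53, and Acvr2a, Skil and Smad4 were lower. Basal and myoepithelial markers were lower too, 6 of 10 with a median of -0.50, and their part in these differences was not tested.

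In stromal minus total epithelial cells, where 13.6% of all genes were higher and 15.6% lower, 7 of 16 targets were higher and 4 lower (median 0.19), and 3 of 4 proteoglycans were higher. The targets Fn1 (3.96), Tgfbi (3.21) and Col3a1 (2.89) were higher, and Ccn2 (-1.88), Tagln (-1.27), Snai2 (-0.97) and Bhlhe40 (-0.49) lower. The proteoglycan Aspn was higher by 4.73 and Dcn by 1.90. The latency proteins Ltbp4 (1.52) and Lrrc32 (1.29) (Lrrc32 holds latent TGF-beta on cell surfaces) and the endothelial co-receptor Eng (0.94) and receptor Acvrl1 (0.84) were higher. The activating integrin chains Itgb8 (-2.15) and Itgb6 (-1.79) were lower, as were 8 of the 17 Smads and regulators. All 10 fibroblast markers (median 3.13) and 8 of 10 endothelial markers were higher in stroma, and all 10 basal and all 10 luminal markers lower.

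**Figure D4:**
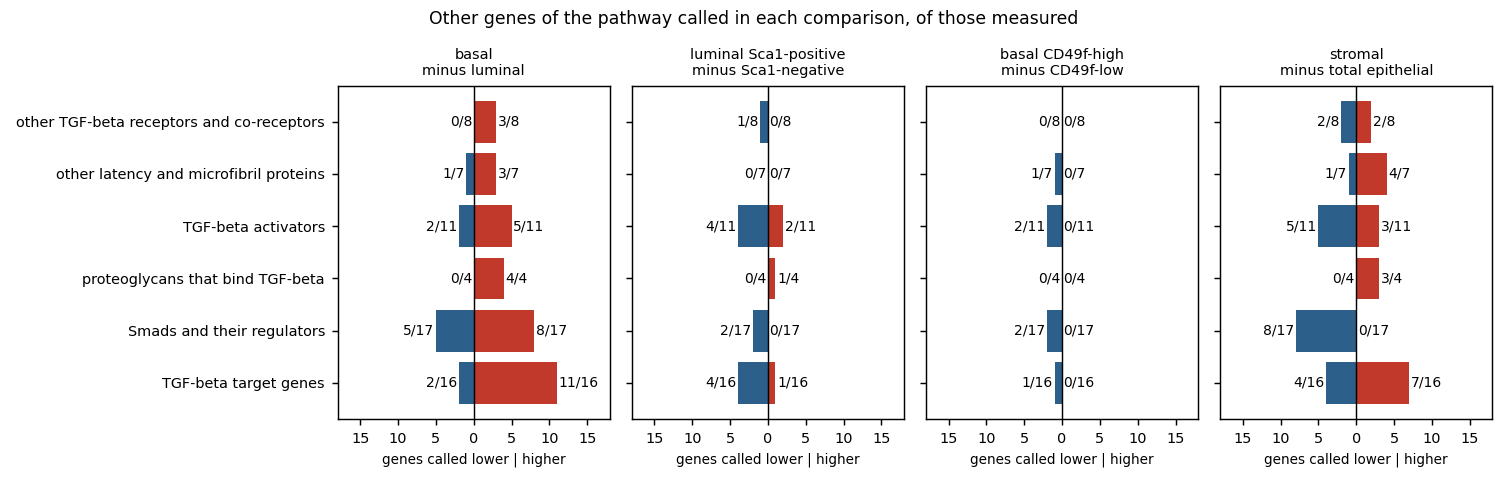
Number of genes (x axis) of 6 lists of other pathway genes (y axis) called higher (red, right) or lower (blue, left) in each of 4 comparisons, with the number measured after each slash. Basal minus luminal cells had 11 of 16 target genes higher, and basal CD49f-high minus CD49f-low cells had no gene higher.

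In basal CD49f-high minus CD49f-low cells (1.05% of all genes higher, 2.48% lower) no gene of these lists was called higher, and 6 were lower: the activators Adamts1 (-0.53) and Furin (-0.45), the regulators Tgif1 (-0.51) and Skil (-0.40), the target Timp1 (-0.71) and the latency gene Vasn (-0.46). Parity called few of these genes in single fractions other than CD49f-high cells. In those other fractions between 0.446% and 1.00% of all genes were called, against 9.06% in CD49f-high cells. Fbn2, a fibrillin of the microfibrils to which Ltbp proteins bind, fell by 1.36 in total epithelial, 1.43 in basal CD49f-low and 1.52 in CD49f-high cells. Thbs1 fell by 0.75 in CD49f-low and 0.76 in CD49f-high cells, Dcn by 1.35 in luminal Sca1-positive cells and Col3a1 by 0.88 in stromal cells. The lipase inhibitor Angptl4, a TGF-beta target, rose by 0.79 in luminal Sca1-negative cells, where it was the single pathway gene called besides Tgfb3.

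In CD49f-high cells parous pools had the targets Nox4 (1.64), Ccn2 (0.98), Tagln (0.87) and Junb (0.83) higher and Timp1 lower (-1.25), 4 and 1 of 16. Among Smads and regulators 5 of 17 fell, led by Smad1 (-1.08), Nedd4l (-1.03) and Tgif1 (-0.78). The receptors Acvr1 (-1.28) and Acvr1b (-0.72) fell, and Bambi (0.76) and Acvr2b (0.35) rose. Of all genes 9.06% were called in that comparison. Basal and myoepithelial markers were higher in 3 and lower in 1 of 10 cases there (median 0.40) and luminal markers higher in 1 of 10 (median 0.49), and their part in these calls was not tested. These calls rest on 2 parous samples, and when only that fraction was fitted limma called 0 genes (2101 at an unadjusted p under 0.05), against 1806 in the fit of all groups. Over the 4 sorted epithelial fractions, where 6.20% of all genes were called, 5 of 16 targets were higher and 1 lower (median 0.13), with Nox4 at 0.65, Junb at 0.46 and Timp1 at -0.48, while Fbn2 fell by 0.90, Dcn by 0.88 and Thbs1 by 0.60. Basal and myoepithelial markers were higher in 5 of 10 cases and lower in 1 in the same comparison (median 0.30), and their part in it was not tested.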

How the data were processed

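Expression was measured on Affymetrix arrays in 35 samples of 12 groups. The deposited log2 values, 1.74 to 13.3, were used as the authors gave them. The submitters' processing notes name the affy package, and the normalisation is not given in the sources used here, so the log2 scale is read from the values' range. Of 34760 probe sets, 21640 had 1 symbol, 1321 several and 11799 none in the platform annotation. The probe set of highest mean over all samples stood for each of 19937 genes. One linear model of the 12 group means was fitted with limma 3.58.1 in R 4.3.3 (lmFit and eBayes with a trend), with Benjamini-Hochberg adjustment over all genes and a threshold of 0.05. The fit was tested on simulated data. P-values rest on the spread between pools within groups. For each gene 1 estimate of it was shared by all 12 groups, so it is not that of the compared groups alone. Samples of different fractions were treated as independent, though the labels do not say whether those with the same number share a pool.

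The 10 genes and all lists were chosen with earlier results of these data known. Every one of the 10 is described. From each of 6 pathway lists up to 4 called genes in each direction with the largest differences could be named, and for each of the 10 genes the profile most alike by Pearson r. Fbn1 and Cdkn1a of those lists were not analysed here. Alternatives were no trend, array weights, quantile normalisation, a filter on dim probe sets (group mean at least 5), the mean of a gene's probe sets, blocks for pool or replicate number, only the fractions compared, and each sample left out. One alternative, leaving out the CD49f-high fraction, was chosen after seeing the data. Promoters came from RefSeq's table for GRCm38.p6.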

Additional observations from a re-analysis of the deposited data

Results flagged for a closer look

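The parous minus nulliparous difference of Tgfb3 was not the same in all cell types. The contrast of luminal Sca1-positive minus Sca1-negative cells was -1.62, that of luminal Sca1-negative minus basal CD49f-low cells was 1.85, and the F test across all 6 subpopulations had a limma adjusted p of 0.00196. The difference itself was tested in each case.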

How the results depend on the processing

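Differences of single genes under all alternatives except leaving out each sample in turn numbered 1210. These include fits of only the fractions compared and fits without the CD49f-high fraction. Of them, 1191 kept their direction and their side of the threshold where they had been called or stayed uncalled. A call was lost in 14 and gained in 5, and none of the called ones reversed. Without a trend, without dim probe sets and with the mean of probe sets, no count of called genes among the 10 changed. The filter and the mean could not change the values of the 10 genes. Each had 1 probe set, and none read below 5.66 in any sample. Only the other genes of the fit differed there. With array weights the count became 2 in luminal Sca1-negative, 1 in basal CD49f-low and 0 in CD49f-high cells for parity, and 0 for CD49f-high minus CD49f-low. It became 1 for parity over the 4 sorted fractions under quantile normalisation, with pools as a random block and without the CD49f-high fraction. Fitting only the fractions compared gave 0 for parity in CD49f-high cells, 0 for CD49f-high minus CD49f-low and 0 for the Sca1 contrast of parity differences. With a sample left out, counts ran from 0 to 2 for parity in CD49f-high cells, 1 to 3 for parity over the 4 fractions, 0 to 2 for CD49f-high minus CD49f-low, 0 to 1 for both the Sca1 and the CD49f contrast of parity differences and 1 to 2 for the F test. Where 1 parous CD49f-high sample was left, it was assumed to vary like the other groups.

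Same-numbered parous and nulliparous samples deviated together only weakly (17 pairs, r from -0.05 to 0.23, median 0.07, 4 above 0.1). The numbers were not taken to pair histories in the main fit. Between subpopulations of one history 43 of 85 same-numbered pairs were above 0.1 (median 0.10, highest 0.34). With pools as a random block Tgfbr3 and Smad7 lost their calls over the 4 fractions. A replicate block gave 2 called genes for parity in luminal Sca1-negative cells and 2 in CD49f-high cells. Counts over all genes moved more. For parity they ran from 18 to 159 genes in stromal cells (119 as reported), 29 to 197 in total epithelial (89), 81 to 614 in luminal Sca1-negative (200), 67 to 194 in luminal Sca1-positive (121), 62 to 544 in basal CD49f-low (193) and 0 to 2334 in CD49f-high cells (1806), and from 804 to 1612 over the 4 fractions (1237). They ran from 28 to 1134 for CD49f-high minus CD49f-low (705), 8 to 63, 17 to 942 and 23 to 205 for the Sca1, CD49f and Sca1-negative to CD49f-low contrasts of parity differences (19, 453 and 60) and 411 to 1007 for the F test (558). Quantile normalisation changed the share of called genes that were higher from 44.3% to 56.4% in basal minus luminal cells and from 66.0% to 55.7% for parity in luminal Sca1-negative cells, and in the Sca1, CD49f and Sca1-negative to CD49f-low contrasts of parity differences from 47.4% to 60.0%, 43.5% to 57.4% and 61.7% to 72.1%. It turned the direction of none of the called differences of the 10 genes.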
